A study of Mus musculus with 6 samples.

Results

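The 10 genes described here make the proteins that load peptides onto MHC class I molecules: the heavy chains H2-K1 and H2-D1, the light chain B2m, the peptide transporter Tap1 and Tap2, tapasin (Tapbp), the immunoproteasome subunits Psmb8, Psmb9 and Psmb10, and the class I transactivator Nlrc5. They were chosen by symbol, are 10 of the 38293 genes in the count table, and all 10 passed the filter on low counts that left 14746 genes to test. The hearts of 3 WT and 3 Zeb2 cKO mice were sampled 14 days after myocardial infarction (MI) by permanent occlusion of the left anterior descending artery. Their bulk RNA was sequenced to ask what loss of the transcription factor ZEB2 from cardiomyocytes does to expression in the injured heart. Per the methods, the WT mice carried Zeb2 fl/fl, an allele that Cre can delete, without Cre, and the Zeb2 cKO mice carried Zeb2 fl/fl with a Cre transgene under the cardiomyocyte promoter Myh6 (αMHC-Cre). All animals had the occlusion and are labelled as backcrossed C57BL/6J, and the methods give adult males, 8 to 10 weeks old at surgery. The labels place the tissue in the border region of the infarct, whereas the methods place it in the remote zone. No sham-operated heart and no Cre-only control were in this comparison, so the levels below are those of infarcted hearts, and an effect of the Cre transgene cannot be told apart from one of the deletion.

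Class I molecules sit on almost every nucleated cell and show peptides from the cell's own proteins to CD8 T cells. The proteasome cuts proteins into peptides, TAP1 and TAP2 carry these into the endoplasmic reticulum, and tapasin holds the empty heavy chain with B2M beside the transporter until a peptide fits. Interferon gamma raises the whole pathway, in part through IRF1 and NLRC5, and replaces the 3 catalytic proteasome subunits by PSMB8, PSMB9 and PSMB10. Resting cardiomyocytes are known for low class I levels, while endothelial cells and leukocytes carry more.

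Of the members, 7 lie together in the major histocompatibility complex (MHC) on chromosome 17. In Gencode coordinates of GRCm38, Tapbp (ENSMUSG00000024308) lies from 33915899 to 33929292 on the plus strand, and H2-K1 (ENSMUSG00000061232) from 33996017 to 34000347 on the minus strand. Psmb9 (ENSMUSG00000096727, 34181987 to 34187764, minus strand), Tap1 (ENSMUSG00000037321, 34187553 to 34197225, plus), Psmb8 (ENSMUSG00000024338, 34197721 to 34201454, plus) and Tap2 (ENSMUSG00000024339, 34203527 to 34216321, plus) follow each other within 34.3 kb. H2-D1 (ENSMUSG00000073411, 35262730 to 35267499, plus) lies at the far end of the 1.35 Mb that these 7 genes span. Outside the MHC, B2m (ENSMUSG00000060802) lies on chromosome 2 from 122147686 to 122153083, and Psmb10 (ENSMUSG00000031897, 105935735 to 105938444) and Nlrc5 (ENSMUSG00000074151, 94434356 to 94527272) lie on chromosome 8.

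RefSeq promoter windows (GRCm38.p6, 250 bases before to 50 bases after the start of transcription) matched 8 of the 10 members. The windows of 4 members are printed here because they hold elements by which class I genes are known to be switched on, or the box that ZEB2 is known to bind. Capitals in H2-K1 and H2-D1 mark, from 5′ to 3′, the kappaB site bound by NF-kappaB, an IRF site (GAANNGAAA, here on the opposite strand), and the X2 and Y boxes, which recruit the complex that NLRC5 joins (TGACG, then any 20 bases, then ATTGG). In B2m the capitals mark an interferon-stimulated response element (ISRE: GAAA, then any 2 bases, then GAAA), the kappaB site and the X2 and Y boxes. The capitals in Tap1 mark the E2-box CACCTG, read on the opposite strand.
H2-K1, chr17:34000284-34000583, minus strand: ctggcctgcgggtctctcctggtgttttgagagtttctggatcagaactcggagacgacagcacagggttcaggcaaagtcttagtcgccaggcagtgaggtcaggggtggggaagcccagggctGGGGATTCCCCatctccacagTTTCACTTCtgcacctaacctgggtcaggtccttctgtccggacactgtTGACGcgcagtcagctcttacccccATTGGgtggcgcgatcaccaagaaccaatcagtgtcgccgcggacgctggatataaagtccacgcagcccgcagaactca
H2-D1, chr17:35262844-35263143, plus strand: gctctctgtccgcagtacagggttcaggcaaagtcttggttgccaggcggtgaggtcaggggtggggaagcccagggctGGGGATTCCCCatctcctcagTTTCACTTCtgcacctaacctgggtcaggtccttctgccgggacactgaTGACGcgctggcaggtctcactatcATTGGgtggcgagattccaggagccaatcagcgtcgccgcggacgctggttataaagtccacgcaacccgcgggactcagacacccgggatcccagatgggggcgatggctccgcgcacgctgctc
B2m, chr2:122147437-122147736, plus strand: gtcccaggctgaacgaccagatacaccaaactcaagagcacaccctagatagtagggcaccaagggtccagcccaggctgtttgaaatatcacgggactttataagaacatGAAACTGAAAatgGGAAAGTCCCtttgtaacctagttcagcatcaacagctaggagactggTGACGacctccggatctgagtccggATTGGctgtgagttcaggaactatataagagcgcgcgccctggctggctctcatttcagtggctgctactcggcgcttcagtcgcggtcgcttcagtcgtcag
Tap1, chr17:34187306-34187605, plus strand: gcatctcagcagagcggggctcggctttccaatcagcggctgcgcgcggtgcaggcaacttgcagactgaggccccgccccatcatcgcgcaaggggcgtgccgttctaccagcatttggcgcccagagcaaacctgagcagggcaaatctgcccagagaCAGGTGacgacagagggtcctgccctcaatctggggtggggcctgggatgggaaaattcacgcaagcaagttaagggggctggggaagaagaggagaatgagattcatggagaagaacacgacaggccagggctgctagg

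Motifs were searched on both strands, and they were chosen after the windows had been read. The X2 and Y letters at this spacing were in the windows of H2-K1, H2-D1 and B2m and in 31 of all 32851 windows (0.0944%), which belong to 27 genes. The IRF letters of the 2 heavy chains were in 7.52% of all windows, the ISRE letters of B2m in 3.44% and the kappaB consensus, found in all 3, in 4.51%. Tap1 and Psmb9 are read away from each other from start sites 226 bases apart, so that their windows share 275 bases, and the CACCTG marked above is 1 site in both. CACCTG was in 20.2% of all windows and in no window of another member. These matches describe letters, not binding.

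The libraries held between 37288174 and 51136331 counts, of which between 14301225 and 19024394 lay outside mitochondrially encoded genes. Levels are given as CPM, the counts of a gene relative to the library size after scaling by TMM. Zeb2 itself was at 61.3, 116.05 and 71.9 CPM in WT 1, 2 and 3 and at 59.6, 72.6 and 66.5 CPM in Zeb2 cKO 1, 2 and 3, and the groups overlapped (log2 fold change -0.33, standard error 0.25, adjusted p = 0.957 in edgeR, and -0.0058 without WT 2). The deletion was made in 1 cell type, whereas every cell of the tissue contributed RNA to these counts. The library WT 2 stood apart: summed CPM of 12 macrophage markers was 943 there and 237 to 333 in the other 5 libraries, and of 7 fibroblast markers 9614 against 1678 to 2324. The 8 cardiomyocyte markers summed to 11113 CPM in WT 2 and to 17959 to 22553 CPM in the others. Fold changes of the members are therefore given with and without WT 2.

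H2-K1 and H2-D1, the classical heavy chains that present peptide, were detected in every library with at least 1343 counts. H2-K1 was at 35.7, 66.2 and 43.7 CPM in WT 1, 2 and 3 and at 29.6, 38.2 and 38.2 CPM in Zeb2 cKO 1, 2 and 3. WT 2 was 1.52-fold above the next library, and the other WT libraries lay among or just above the cKO libraries. Its log2 fold change, Zeb2 cKO over WT, was -0.46 (standard error 0.24), with an adjusted p of 0.957 in the quasi-likelihood test of edgeR (Benjamini and Hochberg's method over all 14746 genes), and it was -0.16 without WT 2. H2-D1 was at 44.2, 84.1 and 54.4 CPM in WT and at 39.2, 77.8 and 49.99 CPM in Zeb2 cKO. Here a library of each genotype, WT 2 and Zeb2 cKO 2, was high, and the remaining 4 lay between 39.2 and 54.4 CPM. The log2 fold change of H2-D1 was -0.13 (standard error 0.32, adjusted p = 0.965 in edgeR) and turned to 0.18 without WT 2. In bulk tissue, fewer cells of a type and less RNA per cell cannot be told apart, for these genes and those that follow.

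B2m, the light chain that every class I molecule needs, was the most abundant of the 10. It was at 83.4, 194 and 113 CPM in WT and at 77.7, 110 and 99.3 CPM in Zeb2 cKO (130 ± 57.2 and 95.6 ± 16.4 CPM, SD, n = 3). WT 2 lay 1.71-fold above any other library, the largest such gap among the members, and without it the log2 fold change went from -0.45 (standard error 0.32, adjusted p = 0.957 in edgeR) to -0.037.

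**Figure D1:**
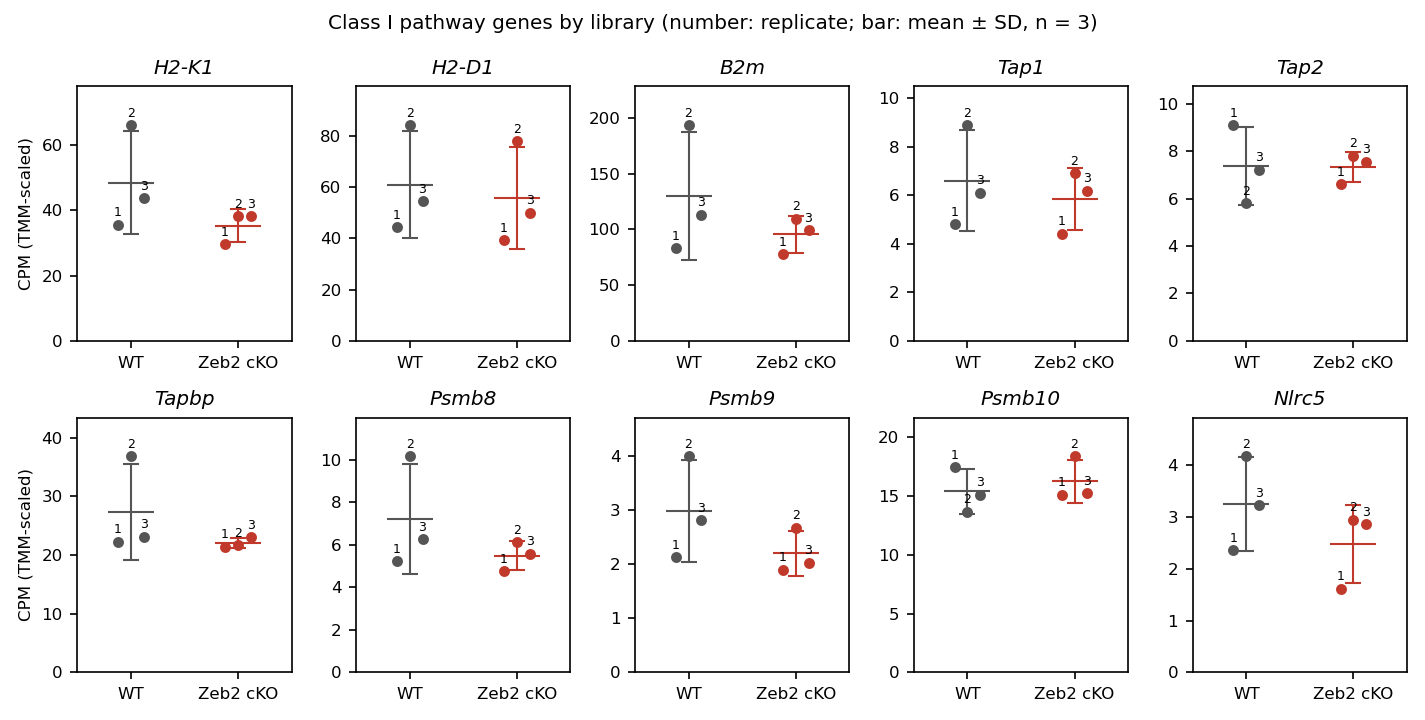
CPM (vertical axis, TMM-scaled, each panel starting at 0 with its own scale) of the 10 class I pathway genes in the 3 WT (grey) and 3 Zeb2 cKO (red) libraries, with the replicate number above each point and bars for mean ± SD (n = 3). The groups overlap in all 10 panels; WT 2 is the highest library for 8 genes and the lowest for Tap2 and Psmb10.

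Tap1 and Tap2, the subunits of the transporter, did not follow each other. Tap1 was at 4.81, 8.91 and 6.12 CPM in WT and at 4.42, 6.91 and 6.20 CPM in Zeb2 cKO, with WT 2 highest. Tap2 was at 9.11, 5.81 and 7.21 CPM in WT and at 6.61, 7.81 and 7.56 CPM in Zeb2 cKO, with WT 2 lowest of the 6 and WT 1 highest. The log2 fold changes were -0.18 (standard error 0.27) for Tap1 and -0.0088 (standard error 0.19) for Tap2, with adjusted p of 0.957 and 0.998 in edgeR. Without WT 2 they were 0.098 and -0.15.

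Tapbp, or tapasin, bridges the transporter and the waiting heavy chain. It was at 22.2, 36.8 and 23.1 CPM in WT and at 21.4, 21.7 and 23.003 CPM in Zeb2 cKO. Outside WT 2, all libraries lay between 21.4 and 23.1 CPM, the narrowest spread of any member relative to its level, and WT 2 lay 1.59-fold above the highest of them. The log2 fold change was -0.32, with a standard error of 0.21 and an adjusted p of 0.957 in edgeR, and -0.040 without WT 2. The study had selected tapasin among the plasma proteins of its secretome partly because it was lower in these same libraries, so its direction here is not independent evidence. In the paper, the selected factors rose with Zeb2 overexpression and fell with its knockdown in cultured cells. For Zeb2 cKO hearts after MI the paper reports no change for many of them. It names significant falls for Tmsb4, Ptma, Rack1 and Dynll1, not for tapasin. Of its longest transcript, 5.18% has a near-identical stretch in other genes (at least 75 bases at 95% identity), and it shares 149 exonic bases with Zbtb22 on the same strand, so a few of its counts are uncertain.

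The inducible proteasome subunits differed among themselves in the same way. Psmb8, the chymotrypsin-like subunit, was at 5.23, 10.2 and 6.28 CPM in WT and at 4.76, 6.13 and 5.58 CPM in Zeb2 cKO. Psmb9, which replaces PSMB6, was at 2.12, 3.99 and 2.81 CPM in WT and at 1.90, 2.67 and 2.03 CPM in Zeb2 cKO. In both genes WT 2 was above all others, by 1.62-fold and 1.42-fold. Psmb10, which replaces PSMB7, was at 17.4, 13.6 and 15.1 CPM in WT and at 15.1, 18.3 and 15.2 CPM in Zeb2 cKO, with WT 2 lowest. The log2 fold changes were -0.40 (standard error 0.26) for Psmb8, -0.44 (standard error 0.27) for Psmb9 and 0.075 (standard error 0.14) for Psmb10, each with an adjusted p of 0.957 in edgeR. Without WT 2 they were -0.066, -0.17 and -0.0029. Psmb9 and Tap1 overlap by 212 exonic bases on opposite strands, and since the strand option of the counting is not given, reads from that stretch cannot be assigned with certainty.

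Nlrc5, the coactivator that switches on class I genes, was the lowest member per kilobase of exon, with 81 to 183 counts per library. It was at 2.36, 4.17 and 3.23 CPM in WT and at 1.62, 2.95 and 2.87 CPM in Zeb2 cKO. WT 2 was again highest and Zeb2 cKO 1 lowest. The log2 fold change was -0.40, with a standard error of 0.31 and an adjusted p of 0.957 in edgeR, and -0.17 without WT 2.

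Across the members, 0 of 10 passed an adjusted p of 0.05 in edgeR and 0 in DESeq2. No member passed an unadjusted p of 0.05 in edgeR either, beside 0.861% of all tested genes that were lower and 1.04% that were higher at that threshold (and 0.0% at an adjusted p of 0.05). In none of the 10 did the groups lie apart, as they did in 6.36% of all genes (2.97% lower and 3.39% higher in Zeb2 cKO), and exact permutation tests on single members (two-sided, smallest possible p = 0.1) gave p from 0.2 to 1. By size alone, 6 of 10 had a log2 fold change under -0.2, beside 22.6% of all genes, and 0 of 10 were over 0.2, beside 15.9%. Below 0 were 9 of 10, beside 51.4%. The median over the members was -0.36, against -0.0069 over all genes. Without WT 2, 0 of 10 were under -0.2, beside 11.7% of all genes, 0 were over 0.2, beside 14.2%, and 8 were below 0, beside 49.1%. The median was then -0.053, against 0.0025. Also without WT 2, the groups overlapped for all 10, whereas they lay apart in 15.5% of genes, and no member had an unadjusted p under 0.05 in edgeR, beside 1.08% lower and 1.55% higher. The 95% intervals with all 6 libraries show how much change remained possible: they reached from 0.488-fold to 1.09-fold for H2-K1, from 0.436-fold to 1.24-fold for B2m, and from 0.833-fold to 1.33-fold for Psmb10.

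**Figure D2:**
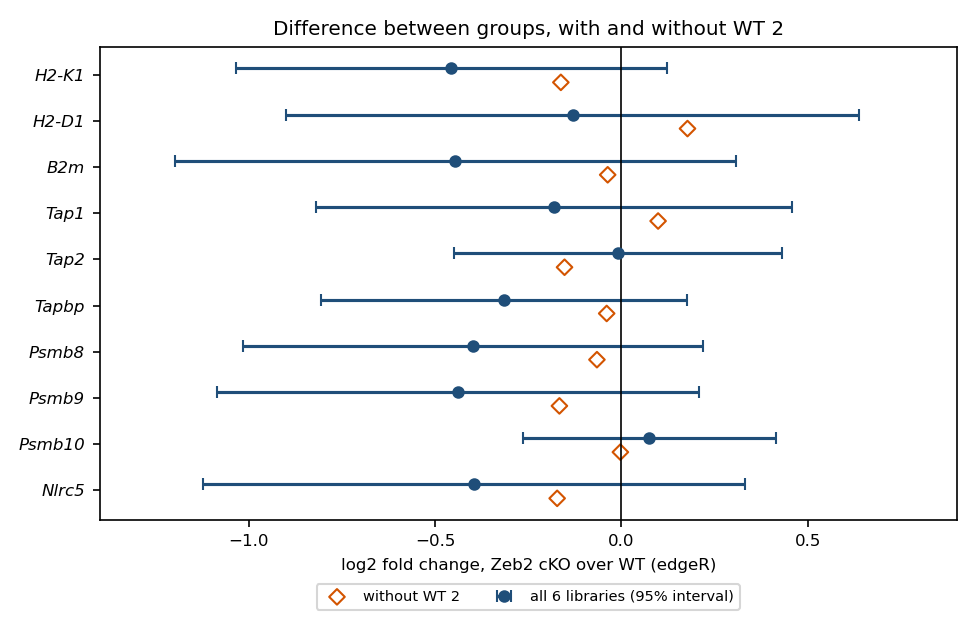
Log2 fold change (horizontal axis, Zeb2 cKO over WT, edgeR) of the 10 members with all 6 libraries (filled circles, bars for the 95% interval) and without WT 2 (open diamonds, no interval drawn). Every interval includes 0, and the diamonds lie between -0.17 and 0.18.

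Leaving out WT 1 in place of WT 2 moved these values the other way. Without WT 1, 6 members (H2-K1, B2m, Tapbp, Psmb8, Psmb9 and Nlrc5) were lower in all Zeb2 cKO than in both remaining WT libraries, beside 12.1% of all genes. Of these, H2-K1 (log2 fold change -0.63), B2m (-0.68), Psmb8 (-0.58) and Psmb9 (-0.63) had an unadjusted p under 0.05 in edgeR, beside 5.49% of all genes, and all 4 had an adjusted p of 0.596. By size, 8 of 10 were then under -0.2, beside 28.8% of all genes. WT 1 was the lowest WT library for each of these 4. With Zeb2 cKO 2 left out, Psmb9 was the member whose groups lay apart, lower in Zeb2 cKO, beside 5.17% of all genes, and with Zeb2 cKO 3 left out it was Tapbp, beside 10.8%.

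Levels per kilobase, counting all annotated exons of a gene, gave an order of the pathway's transcripts in this tissue. That order depends on the length used. Psmb8 has 3381 bases of exon but a longest transcript of 1907 bases, whereas Tap2 has 3781 and 3442. The order of these neighbours is therefore uncertain. B2m was at 90.3 to 225 CPM per kilobase, H2-D1 at 15.2 to 32.6, H2-K1 at 10.1 to 22.5, Psmb10 at 8.01 to 10.8 and Tapbp at 5.90 to 10.1 over the 6 libraries. Below them came Tap2 at 1.54 to 2.41, Psmb8 at 1.41 to 3.01, Tap1 at 0.807 to 1.63, Psmb9 at 0.519 to 1.09 and Nlrc5 at 0.191 to 0.491 CPM per kilobase. Neighbours in this order had ranges that lay apart only for B2m and H2-D1, Tapbp and Tap2, and Psmb9 and Nlrc5. Within a library the order still held in 6 of 6 for each neighbouring pair but Psmb10 and Tapbp, and Tap2 and Psmb8, which held in 5 of 6.

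Each inducible subunit takes the place of a constitutive one in the proteasome. The ratio of the 2 transcripts within a library does not depend on scaling between libraries. In bulk tissue it can also shift with the mix of cells, so it does not measure the exchange itself. The size of each ratio depends on the exon lengths used, but its comparison between libraries does not. The ratio of Psmb8 to Psmb5, per kilobase, was 0.397, 0.988 and 0.352 in WT and 0.344, 0.516 and 0.407 in Zeb2 cKO. For Psmb9 to Psmb6 it was 0.0266, 0.0571 and 0.0346 in WT and 0.0225, 0.0321 and 0.0279 in Zeb2 cKO. For Psmb10 to Psmb7 it was 1.08, 1.13 and 0.921 in WT and 0.807, 1.09 and 0.995 in Zeb2 cKO. WT 2 was the highest library in all 3 ratios, and the groups overlapped in each. All 3 constitutive subunits were lowest in WT 2 (summed CPM 62.8, beside 71.5 to 84.3 in the others), and so was Psmb10. The log2 differences, Zeb2 cKO minus WT, were -0.31 for Psmb8 to Psmb5, -0.46 for Psmb9 to Psmb6 and -0.12 for Psmb10 to Psmb7, with exact permutation p of 0.8, 0.3 and 0.6 (two-sided, n = 3 per group). Without WT 2 they were 0.16, -0.16 and -0.061. Counts of Psmb5 are uncertain, since 88.4% of its transcript has a near-identical copy elsewhere, in the main the pseudogene Gm3375, and 27.4% of Psmb6 has one.

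Heavy chain and light chain were also set against each other. The ratio of summed H2-K1 and H2-D1 to B2m, per kilobase, was 0.302, 0.245 and 0.273 in WT and 0.280, 0.338 and 0.281 in Zeb2 cKO. The log2 difference was 0.13 (exact permutation p = 0.4, two-sided, n = 3 per group), with WT 2 lowest and Zeb2 cKO 2 highest, and 0.055 without WT 2. Over the 4 ratios tested, every adjusted p was 0.8.

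The 2 heavy chains themselves were expressed in a nearly fixed proportion in 5 of the 6 libraries. H2-D1 made up 55.4% (95% Wilson interval 53.6 to 57.1), 56.0% (54.8 to 57.2) and 55.5% (53.9 to 57.1) of the summed H2-D1 and H2-K1 counts in WT 1, 2 and 3. It made up 56.9% (55.3 to 58.6), 67.1% (65.8 to 68.3) and 56.7% (55.3 to 58.1) in Zeb2 cKO 1, 2 and 3. Zeb2 cKO 2 was thus the exception, with 3378 H2-D1 and 1659 H2-K1 counts, while WT 2, with the highest level of both genes, kept the common proportion. All 3 Zeb2 cKO shares lay above all 3 WT shares, but the intervals of Zeb2 cKO 1 and 3 overlapped those of WT. The log2 difference in the ratio of H2-D1 to H2-K1 was 0.28, and 0.29 without WT 2. These intervals cover counting error only, and the proportion was looked at after its values were seen, so no test is given. H2-D1 shares 280 near-identical bases with H2-Q7, and 24.3% of its longest transcript has such a stretch in other genes. The longest transcript of H2-K1 has none. Searched from the other genes, however, H2-K1 matched H2-Q1 (286 bases), H2-Q7 (201), H2-T22 (201) and H2-T23 (193), so its counts are not free of this uncertainty. The labels give the strain as backcrossed and do not give the MHC haplotype of any mouse, so how well the reads of each mouse match the annotated heavy chains is unknown, and what set Zeb2 cKO 2 apart was not tested.

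**Figure D3:**
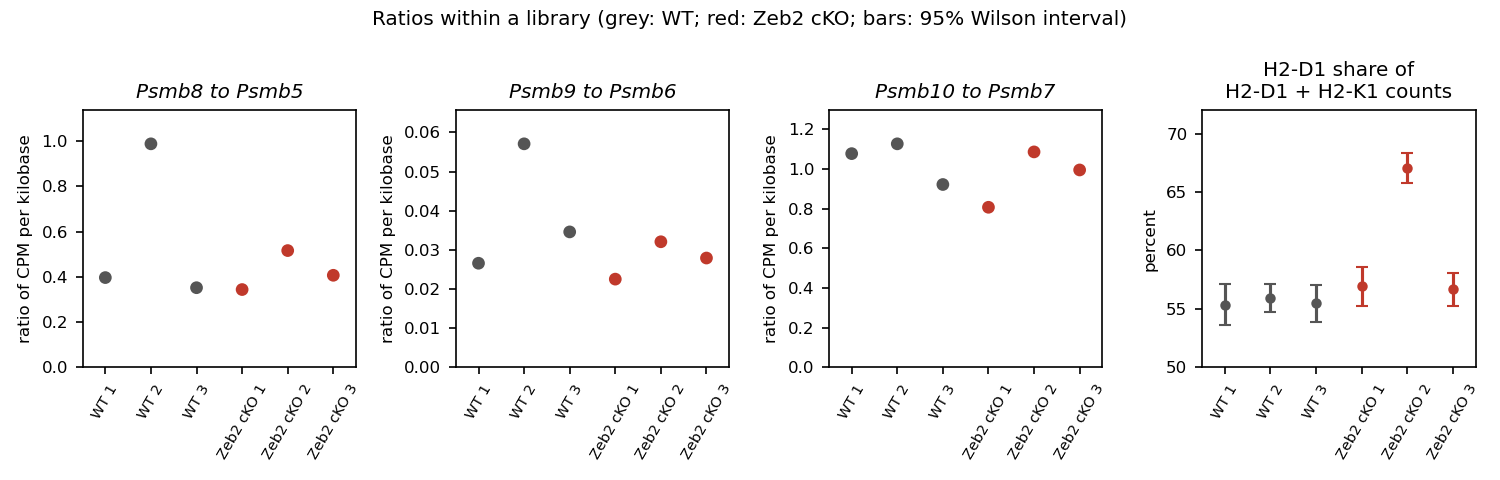
Ratios within each library, with WT in grey and Zeb2 cKO in red: the left 3 panels give inducible over constitutive proteasome subunit (ratio of CPM per kilobase, axes from 0), and the right panel gives H2-D1 as a percent of H2-D1 plus H2-K1 counts with 95% Wilson intervals (axis from 50%). WT 2 is the highest point for Psmb8 to Psmb5 (0.988) and Psmb9 to Psmb6 (0.0571), and Zeb2 cKO 2 stands apart in the heavy chain share (67.1%).

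Other class I genes were taken from a list of 17, of which 12 were expressed highly enough to test. Among these H2-T23 (the non-classical molecule Qa-1, a ligand of NK receptors) was lower in Zeb2 cKO at an unadjusted p under 0.05, and its groups did not overlap. It was at 7.81, 15.0 and 8.12 CPM in WT and at 6.65, 5.25 and 6.59 CPM in Zeb2 cKO. Its log2 fold change was -0.74, with a standard error of 0.28 and an adjusted p of 0.957 in edgeR, and -0.36 without WT 2, where its groups still lay apart, beside 7.22% of all genes in that direction. Since 0.861% of all genes were lower at that p, and the adjusted p did not pass, H2-T23 is given as a value and not as a change. Of its longest transcript, 33.2% has a near-identical stretch in other genes. Without WT 2 the list also held a gene in the other direction, Cd1d1 (a class I-like molecule that presents lipids), named after its values were seen, at 0.504, 1.21 and 0.833 CPM in WT and 1.12, 1.36 and 0.968 CPM in Zeb2 cKO. Its log2 fold change was 0.43 with all 6 libraries, where its groups overlapped, and 0.78 without WT 2, where its unadjusted p was under 0.05 in edgeR and its groups lay apart, beside 8.31% of all genes in that direction. Fcgrt, the neonatal Fc receptor and the most abundant of the list per kilobase, was at 27.7, 37.8 and 28.4 CPM in WT and at 27.7, 30.1 and 27.8 CPM in Zeb2 cKO (log2 fold change -0.13, and 0.029 without WT 2).

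With all 6 libraries, no gene of the pathway lists passed an adjusted p of 0.05 in edgeR, and apart from H2-T23 none passed an unadjusted p of 0.05. This held for 10 partners of peptide loading and trimming, 3 constitutive catalytic subunits, 7 proteasome activators and assembly factors, and 18 genes of interferon gamma signalling and class I transactivation. Among the loading partners, Pdia3, the disulfide isomerase of the loading complex, had the smallest p, with 38.9, 100.03 and 48.3 CPM in WT and 42.4, 42.4 and 45.6 CPM in Zeb2 cKO. Its log2 fold change of -0.52 (standard error 0.34) was -0.0011 without WT 2. Calr, the chaperone calreticulin and the most abundant partner per kilobase, was at 99.6 to 128 CPM in WT and 101.6 to 132 CPM in Zeb2 cKO (log2 fold change 0.020, and 0.11 without WT 2). Medians of log2 fold change were -0.036 over the loading partners, 0.057 over the constitutive subunits, 0.11 over the activators and assembly factors and -0.094 over the interferon list, beside -0.0069 over all genes. Without WT 2 these medians were 0.055, -0.0063, 0.069 and -0.020, beside 0.0025.

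The interferon list holds the known inducers of the members. Ciita, the class II counterpart of Nlrc5, had the smallest p, at 1.94, 6.81 and 1.43 CPM in WT and 1.56, 1.08 and 1.79 CPM in Zeb2 cKO (log2 fold change -1.20, standard error 0.59, adjusted p = 0.957 in edgeR). Without WT 2 its log2 fold change was -0.18. Rfx5, a subunit of the complex that binds the X box, was the only gene of this list whose groups lay apart, at 5.02, 5.61 and 5.91 CPM in WT and 6.32, 6.73 and 6.31 CPM in Zeb2 cKO (log2 fold change 0.23, standard error 0.12, adjusted p = 0.957 in edgeR). All 3 Zeb2 cKO libraries lay above WT, as in 3.39% of all genes, and its log2 fold change was 0.24 without WT 2. Rfx5 was named after its values were seen.

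In WT 2 most members were high along with the markers of other cells. Of the 10 members, 8 were highest of the 6 libraries in WT 2, beside 35.2% of all tested genes, and the remaining 2, Tap2 and Psmb10, were lowest there, beside 34.6%. The class II presentation genes, 7 of 7 highest in WT 2, summed to 84.0 and 95.6 CPM in WT 1 and 3, to 525 CPM in WT 2 and to 81.2 to 122.5 CPM in Zeb2 cKO. The macrophage markers were 12 of 12 highest in WT 2 and the fibroblast markers 7 of 7, with their summed levels 2.83-fold and 4.14-fold above any other library. Among 11 T and NK lymphocyte markers, only Cd4 was expressed highly enough to test, and the list summed to 3.92 CPM in WT 2 and 0.664 to 1.08 CPM elsewhere. Of the lymphocyte markers Cd3e, Cd3d, Cd8a and Ifng were at 0 in at least 1 library, and none of the list was at 0 in all 6. The neutrophil markers summed to 4.99 CPM in WT 2 and 1.498 to 3.31 CPM in the others, and the B lymphocyte markers to 2.53 CPM and 0.759 to 1.88 CPM. The endothelial markers summed to 385 CPM in WT 2 and to 488 to 583 CPM in the others. The excess of the 8 members in WT 2, 1.08-fold to 1.71-fold over any other library, was smaller than that of the macrophage, class II, T and NK lymphocyte and fibroblast sums. The neutrophil and B lymphocyte sums, 1.51-fold and 1.35-fold above any other library, lay within the range of the members. Whether these cells account for the level of the members in WT 2 was not tested.

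**Figure D4:**
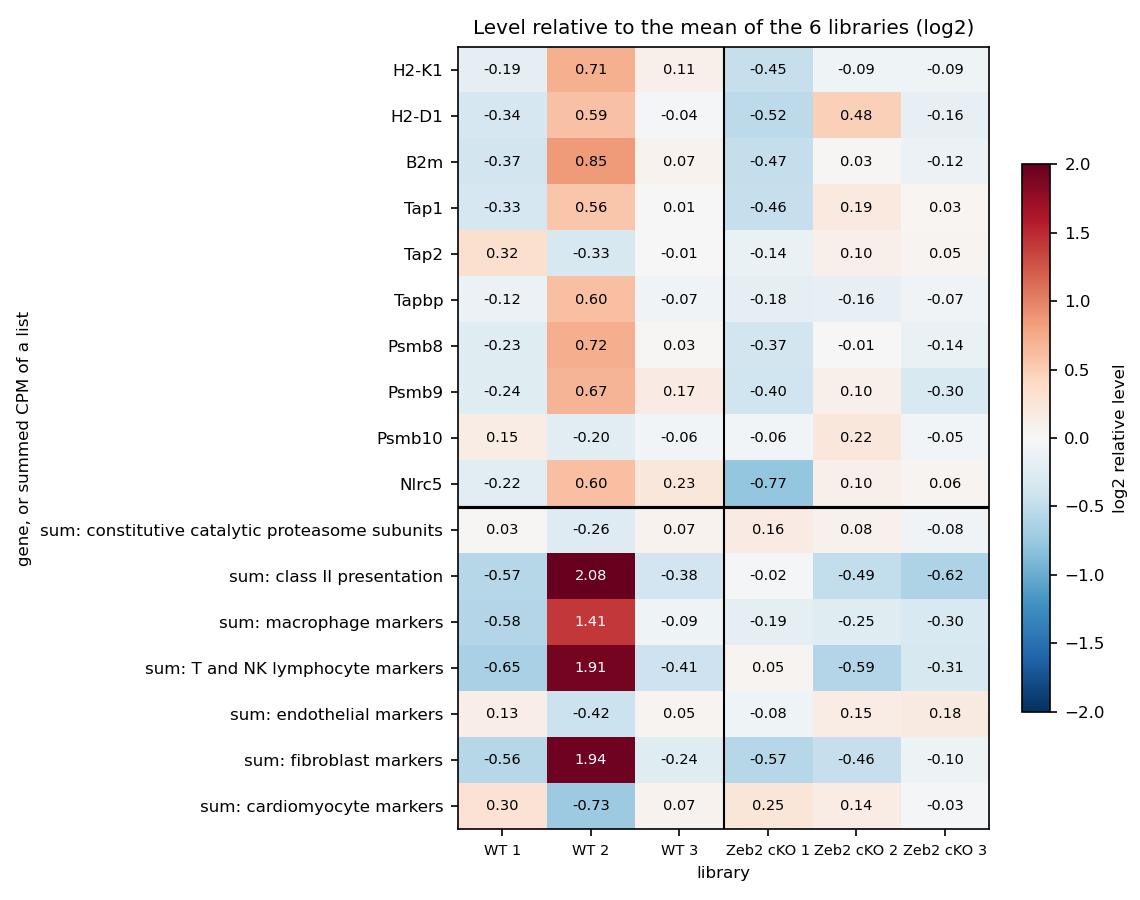
Level of each member (upper block) and of the summed CPM of marker lists (lower block) in the 6 libraries, as log2 relative to the mean of the 6 (colour scale from -2 to 2, values printed in the cells). WT 2 is the reddest column for 8 members and for the class II, macrophage, T and NK lymphocyte and fibroblast sums. It is the bluest for Tap2, Psmb10 and the cardiomyocyte, endothelial and constitutive proteasome subunit sums.

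Likeness among the members was measured as the root mean square difference of log2 CPM, each gene centred on its own mean over the 6 libraries. Tap1 lay nearest to the mean profile of the members at 0.104, and Psmb10 at 0.337 and Tap2 at 0.396 lay farthest. Among the 5 other tested genes with the profiles most like the members' mean were Lyl1 (a transcription factor of blood and endothelial cells), Irgm2 (an interferon-induced GTPase), Samhd1 (a dNTP hydrolase) and Phf11d, with differences from 0.0268 to 0.0517 over 6 libraries. Samhd1 was at 13.8, 21.8 and 15.7 CPM in WT and at 12.7, 15.9 and 14.5 CPM in Zeb2 cKO. Irgm2 was at 8.89, 13.8 and 10.2 CPM in WT and at 7.21, 10.7 and 9.31 CPM in Zeb2 cKO. In both genes WT 2 was highest and Zeb2 cKO 1 lowest, as in all members but Tap2 and Psmb10.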

How the data were processed

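Cardiac RNA of 3 WT and 3 Zeb2 cKO mice, each library assigned by its sample label, was prepared by the authors as a stranded total RNA library depleted of ribosomal RNA and sequenced as single-end reads of 75 bases. According to the methods, the authors aligned and quantified the reads on Gencode M4 with the STAR workflow. They deposited 1 table of raw counts per gene without normalization. The STAR version, the strand option and what was done with multi-mapping reads are not given in the sources used here. All columns of the table were matched to a sample, and 0 were left over.

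Symbols, positions and exon lengths were taken from Gencode M21 (GRCm38) by gene identifier (36429 of 38293 matched). Counts were scaled by TMM, filtered with filterByExpr and tested with edgeR 4.0.16 (R 4.3.3) by glmQLFit and glmQLFTest, with genotype as the only factor and Benjamini-Hochberg adjustment over 14746 genes. The standard error was the size of the log2 fold change over the root of F, with a prior count of 0.125 for the fold change and of 2 for log2 CPM in profiles and permutation tests. Ratios and single genes were compared by exact permutation tests, two-sided, over 10 distinct splits. DESeq2 1.42.0 was an alternative. The authors used DESeq with dispersions estimated per condition, which was not used here. BLAST 2.17.0 was run from the longest transcript of a gene to find near-identical copies (at least 75 bases at 95% identity), and promoter windows came from RefSeq on GRCm38.p6.

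Replicates are separate mice per the labels. The numbers 1, 2 and 3 occur in both groups, and whether they pair the samples is unknown. The deviations of same-numbered libraries from their group means correlated at 0.088, -0.14 and -0.087. These lay within the range of differently numbered libraries (-0.26 to 0.24). With 3 libraries per group this check cannot exclude pairing, and the main test left the number out. The common biological coefficient of variation was 0.24, so the spread between mice, not the depth, set the precision for all but the scarcest genes. In simulated libraries of 14860 genes with the means and sizes of the real ones, 34 of 99 genes with a true log2 change of 1 and 99 of 99 with one of 2 passed in edgeR, and 41 and 96 in DESeq2. Whether these rates hold for the real libraries, among which WT 2 stood apart, was not tested.

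The members and gene lists were chosen with earlier results of these data known. Named genes were the 10 members, Zeb2, Psmb5, Psmb6 and Psmb7, the gene of smallest p and the most abundant gene of each other list, the 5 genes of most similar profile, and genes with sequence near-identical to a member. Not all of them are printed, and 1 of them and 1 motif are not reported here. Marker genes at 0, a gene overlapping Tapbp, Rfx5, Cd1d1 and class I genes compared in Zeb2 cKO 2 were named outside this rule. Alternatives covered normalization, the filter, the test, the replicate number, mitochondrially encoded genes and each library left out.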

Additional observations from a re-analysis of the deposited data

How the results depend on the processing

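Of 259 values recomputed under other settings, 242 stayed on their side of the threshold with their direction or within the spread between replicates, 8 counts moved and 9 log2 fold changes turned in sign. The 242 do not measure stability in size. No member passed in the main fit, so its log2 fold change counted as having stayed unless the sign turned. Without WT 2, B2m went from -0.45 to -0.037 and the median of the members from -0.36 to -0.053, and both counted as having stayed. No setting brought a member to an adjusted p under 0.05. The sign turned for Tap2 without the filter on low counts (0.0097), with the replicate block (0.010), without WT 1 (0.17) and without Zeb2 cKO 1 (0.060), for H2-D1 without WT 2 (0.18) and without Zeb2 cKO 1 (0.069), for Tap1 without WT 2 (0.098), and for Psmb10 without WT 2 (-0.0029) and without Zeb2 cKO 2 (-0.020). With 1 library left out, log2 fold changes ran from -0.45 to 0.18 for H2-D1, -0.36 to 0.098 for Tap1, -0.15 to 0.17 for Tap2 and -0.020 to 0.17 for Psmb10. The cause was not tested. With 1 library left out, members lower at an unadjusted p under 0.05 numbered 0 to 4 and members with groups lying apart 0 to 6 (6 without WT 1, 1 without Zeb2 cKO 2, which was Psmb9, and 1 without Zeb2 cKO 3, which was Tapbp, beside 12.1%, 5.17% and 10.8% of all genes). Members under -0.2 numbered 0 to 8, with 0 only without WT 2, and their median ran from -0.51 to -0.053. The log2 difference in the ratio of Psmb8 to Psmb5 ran from -0.59 to 0.16, with the positive value without WT 2, that of Psmb9 to Psmb6 from -0.71 to -0.16, that of Psmb10 to Psmb7 from -0.21 to 0.0020, and that of heavy chains to B2m from 0.041 to 0.21. Whether the numbers pair the samples is unknown. With the replicate block 0 members were called, 6 were under -0.2 with a median of -0.31, and 247 of all genes had an unadjusted p under 0.05, beside 280 without it. The filter, left out, gave 600 such genes of 24115, and DESeq2 gave 361, of which 2 passed an adjusted p of 0.05. Psmb9 and Nlrc5, at 80 to 183 counts per library, were the members that depth limited most.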

Other observations

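Zeb2 cKO 2, the library with the high share of H2-D1, also stood apart in some, but not all, other class I genes of the same region of chromosome 17. These genes were named after their values were seen. H2-Q2 had 23 counts in Zeb2 cKO 2 and 0 or 1 in each other library. H2-T24 was at 7.70 CPM in Zeb2 cKO 2 (334 counts) and at 1.96 to 4.17 CPM in the other 5 libraries. H2-T10 had 45 counts there and 13 to 38 in the others. H2-T23, by contrast, was at its lowest in Zeb2 cKO 2, at 5.25 CPM, beside 6.59 to 15.0 CPM in the others. H2-T22 was also lowest there, at 4.01 CPM beside 4.82 to 9.27 CPM, although much of its sequence is near-identical to H2-T10. H2-Q4 (7.10 CPM), H2-Q6 (2.58), H2-Q7 (0.945) and H2-M3 (2.93) lay within the range of the other libraries. Members with no heavy chain in the same region did not stand apart in that library: Tapbp was at 21.7 CPM and Psmb8 at 6.13 CPM, both within the range of the other 5. Of the longest transcripts, 86.1% of H2-T10, 81.8% of H2-T22, 78.0% of H2-Q6 and 33.2% of H2-T23 have a near-identical stretch in other genes. So have 30.9% of H2-Q4, 30.3% of H2-Q7 and 25.6% of H2-Q2. The counts of these genes are therefore uncertain, while H2-T24 and H2-M3 have no such stretch. What set this library apart was not tested.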
